A study of Mus musculus with 12 samples.

Results

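Transcript counts of 46 proteasome genes were described in mouse eosinophils from bone marrow and from blood. The genes were chosen by name among the 53801 genes of the count table, as every protein-coding gene whose symbol begins with Psma, Psmb, Psmc, Psmd or Psme and a number. Another 5 symbols of that form belong to pseudogenes and were left out. The 46 genes comprised the 8 alpha subunits and the 7 constitutive beta subunits of the 20S core, and 4 beta subunits of the immunoproteasome and thymoproteasome. To these were added the 6 ATPases and 11 non-ATPase subunits of the 19S regulatory particle, 3 chaperones of 19S assembly and 5 activator genes. The other 2, Psmc3ip and Psme3ip1, carry such symbols although their products are named as interactors and are not subunits.

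The proteasome is the protease that degrades proteins tagged with ubiquitin. Its barrel-shaped 20S core is built of outer rings of alpha subunits, which gate the entry, and inner rings of beta subunits, of which PSMB6, PSMB7 and PSMB5 (beta1, beta2 and beta5) carry the peptidase activities. The 19S particle binds ubiquitin chains, removes them and unfolds the substrate with a ring of ATPases. In cells exposed to interferon, and constitutively in many blood cells, PSMB9, PSMB10 and PSMB8 (beta1i, beta2i and beta5i) replace these 3 subunits in newly assembled immunoproteasomes. The PA28 activator of PSME1 and PSME2 can cap the core in place of the 19S particle, and both alter the peptides that are offered to MHC class I molecules. The proteasome and autophagy, the pathway for which ATG5 is needed, are the main routes of protein degradation in a cell.

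Eosinophil RNA was sequenced as 12 libraries in 4 groups of 3: control bone marrow, control blood, Atg5-knockout bone marrow and Atg5-knockout blood. Atg5-knockout mice had floxed Atg5 alleles and eoCre, a Cre recombinase knocked into the eosinophil peroxidase gene Epx, so that the deletion takes place in cells that express Epx. The controls carried eoCre without floxed Atg5. All mice, the controls included, also carried the Il5 transgene under the Cd3d promoter, which is active in T cells and raises eosinophil numbers, so that no group represents eosinophils of an animal without it. Cells were isolated by depleting cells labelled with antibodies to surface proteins, among them CD8a, CD90.2 and Ly6G, and red cells of the blood were lysed. The age and sex of these animals, and whether each library came from 1 animal, are not given in the sources used here. The p-values therefore measure the spread between these libraries, which may be technical in part.

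The counts on genes summed to 18885052 to 30270166 per library. All 10 markers of eosinophils had counts in every library and together took 8.04 to 10.2% of the counts in bone marrow and 1.8 to 4.05% in blood. All 10 markers of dividing cells were higher in every bone marrow library than in any blood library, with 0.146 to 0.211% against 0.00408 to 0.0108% of the counts, and the 10 neutrophil markers took 2.22 to 3.17% against 1.18 to 2.1%. The library control blood 1 stood apart: 9 red cell genes took 14.6% of its counts and at most 1.42% in the other 11, and values without it are given beside the results that it moved most. The B cell and T cell lists each had counts in every library, though the T cell marker Cd3e had 0 in all bone marrow libraries. The 6 B cell markers took 0.037 to 0.0401% of the counts in bone marrow and 0.0149 to 0.215% in blood, and the 7 T cell markers 0.000707 to 0.000903% and 0.00205 to 0.025%. Both lists were highest in Atg5-knockout blood 1, followed by control blood 1 (0.107% and 0.0141%). The 8 monocyte and macrophage markers took 0.221 to 0.271% of the counts in bone marrow and 0.271 to 0.299% in blood. Of these 8, 2 were higher in every bone marrow library than in any blood library, and 3 the other way. Atg5 itself lay at 42.2, 44.8 and 41.4 CPM (read counts scaled to the library total) in control and 30.9, 32.0 and 34.5 CPM in Atg5-knockout bone marrow, which did not overlap. In blood it lay at 44.0, 58.9 and 40.0 CPM in control and 36.0, 52.2 and 51.0 CPM in Atg5-knockout mice, which did. The counts cover the whole gene and include exons outside the floxed part. CPM values here were scaled by TMM normalization factors.

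The 46 genes took 0.579% ± 0.0343 (SD, n = 3) of all counts in control bone marrow, 0.582% ± 0.0344 in Atg5-knockout bone marrow, 0.46% ± 0.0813 in control blood and 0.47% ± 0.0185 in Atg5-knockout blood. By library the share was 0.545, 0.613 and 0.578% in control bone marrow and 0.366, 0.511 and 0.503% in control blood. In Atg5-knockout mice it was 0.607, 0.597 and 0.543% in bone marrow and 0.47, 0.489 and 0.452% in blood. Every bone marrow library thus lay above every blood library, and control blood 1, with its red cell transcripts, lay lowest. These shares were not scaled by the TMM factors. In TMM-scaled CPM the summed 20S ring genes overlapped between the tissues in both genotypes. They stood at 2048, 2299 and 2127 in control bone marrow and 1517, 2271 and 2519 in control blood. The summed 19S ATPases stayed wholly lower in blood of both genotypes on that scale. The role groups did not move alike, as the plot of shares by role shows. The 19S ATPases took 0.0767% ± 0.00136 in control bone marrow and 0.0487% ± 0.00879 in control blood. The activators took 0.0652% ± 0.00397 and 0.066% ± 0.00216 and the immunoproteasome beta subunits 0.0382% ± 0.00591 and 0.0388% ± 0.00708. Without control blood 1 the control blood means were 0.507% for the 46 genes, 0.0537% for the ATPases, 0.0661% for the activators and 0.0425% for the immunoproteasome beta subunits (n = 2). In bulk RNA, fewer cells of a type and less RNA per cell cannot be told apart.

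**Figure D1:**
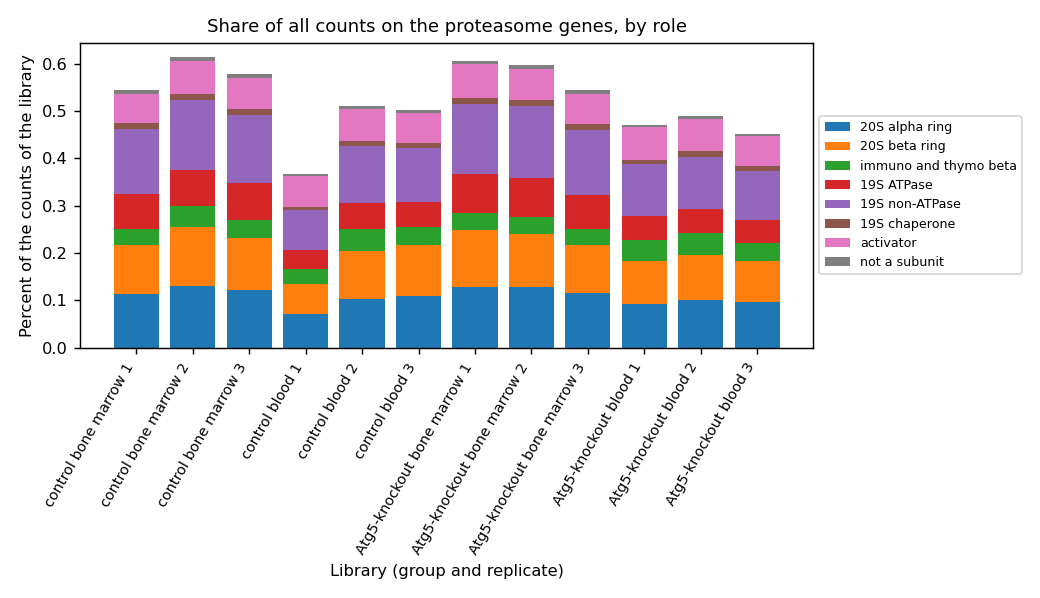
Share of all counts (percent, stacked bars) that fell on the proteasome genes in each of the 12 libraries, by role of the product. Bone marrow libraries reached 0.543 to 0.613%, blood libraries 0.366 to 0.511%, and the lowest bar is control blood 1. The shares are not scaled by TMM factors.

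Levels of different genes were compared per length, as CPM per kilobase of the exon length given in the count table. On that scale, averaged over the 12 libraries, the highest level was that of Psmb1 (238 CPM per kb), a non-catalytic subunit of the beta ring, followed by the alpha subunit Psma6 (163), the beta subunit Psmb4 (117), Psme1 (114) and Psmb2 (89.0). The level of Psmb1 depends on the length chosen: in control bone marrow it was 219 CPM per kb with the exon length of the table and 35.9 with the longest transcript of the reference. The order holds only for the exon lengths of the table: with the longest transcript, the 5 highest over the 12 libraries were Psma6 (128 CPM per kb), Psmb3 (111), Psme2 (95), Psmb4 (93.9) and Psma7 (93.1), and Psmb2 stood at 18.9 and Psme1 at 59.4. The lowest levels per kb were those of the thymoproteasome subunit Psmb11, which cortical epithelial cells of the thymus express, with 2 counts in all 12 libraries. Psma8 (0.36 CPM per kb), the alpha subunit of the testis, had 201 counts in all. Psmb11 had too few counts for any test. Psma8 lay at 1.02, 0.525 and 0.575 CPM in control bone marrow and 0.355, 0.0441 and 0.391 CPM in control blood, wholly below. In Atg5-knockout mice Psma8 lay at 0.861, 1.81 and 0.6 CPM in bone marrow and 0.126, 0.763 and 0.249 CPM in blood, with overlap. Of the other genes, Psmc3ip ranged most between libraries, with its highest CPM 23.5 times its lowest, followed by Psme3 with 3.39 times, and Psma3 least, with 1.37 times.

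In control mice, the 45 proteasome genes that passed the filter on low counts had a median log2 fold change of -0.12 between blood and bone marrow, beside -0.0029 over all 13669 genes tested. None was called higher in blood at an adjusted p under 0.05 (edgeR's quasi-likelihood test, Benjamini-Hochberg adjustment over all genes tested) and 5 were called lower. Of all genes, 16.2% were called higher and 18% lower. At an unadjusted p under 0.05 there were 10 of the 45, among them Psmb10 and Psme1 on the higher side. The share of all genes at that p is not given here, but it includes every gene called after adjustment. The 10 are therefore not a result about the proteasome genes. DESeq2 called the same numbers of 0 and 5. The 5 were the 19S ATPases Psmc3 and Psmc6, the 19S lid subunit Psmd7, the 19S assembly chaperone Psmd5 and Psmc3ip, whose product acts in homologous recombination. Without control blood 1, 7 genes were called higher (Psmb1, Psmb9, Psmb10, Psmd8, Psmd9, Psme1 and Psme2), 6 lower with Psmd1 as the addition, and the median was 3.38e-05. That fit tested 14099 genes, and the share of all genes called in it is not given here. The added calls are therefore not a result about the proteasome genes. The 3 blood libraries lay wholly above the 3 of bone marrow for 1 gene, Psmb10, and wholly below for 10, while 22.3% of all genes lay wholly above and 27.4% wholly below.

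In Atg5-knockout mice, whose libraries are other ones than those of the controls, 5 of 45 genes were called higher in blood and 12 lower by the same test, with a median log2 fold change of -0.20 beside -0.01 over all 13853 genes. In this comparison 23.5% of all genes were called higher and 24.1% lower. The 5 were the immunoproteasome subunits Psmb8, Psmb9 and Psmb10 and the activator genes Psme1 and Psme2b, and the 12 were Psmc3, Psmc4, Psmc5, Psmc6, Psmd1, Psmd2, Psmd5, Psmd6, Psmd7, Psmd14, Psma1 and Psmc3ip. All 5 genes called lower in control mice were among these 12, which is 41.7% of the 12. The same overlap was not counted over all genes, so it is not a result about the proteasome genes. The groups did not overlap for 7 genes that were higher in blood and 25 that were lower, beside 25.9% and 34.2% of all genes. These counts moved with single libraries. Without Atg5-knockout bone marrow 1, 4 genes were called lower, and without bone marrow 2, 2 were called higher and 4 lower. Without bone marrow 3, 2 were called higher, and without Atg5-knockout blood 1, 8. The shares of all genes called in these fits are not given here, so these moves are not results about the proteasome genes. Psmb9 and Psmb10 (higher) and Psmc3, Psmc3ip, Psmd1 and Psmd5 (lower) kept their calls with each library left out and under each other normalization, filter, test and fit tried. The other 11 lost theirs in at least 1 of these, and Psmb8 and Psmc6 kept theirs in only 6 of the 14 fits tried, the main fit included. The larger number of calls in Atg5-knockout mice is not shown to be a difference between the genotypes, since no gene passed the test of the interaction of tissue and genotype, given with the genotype comparisons.

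**Figure D2:**
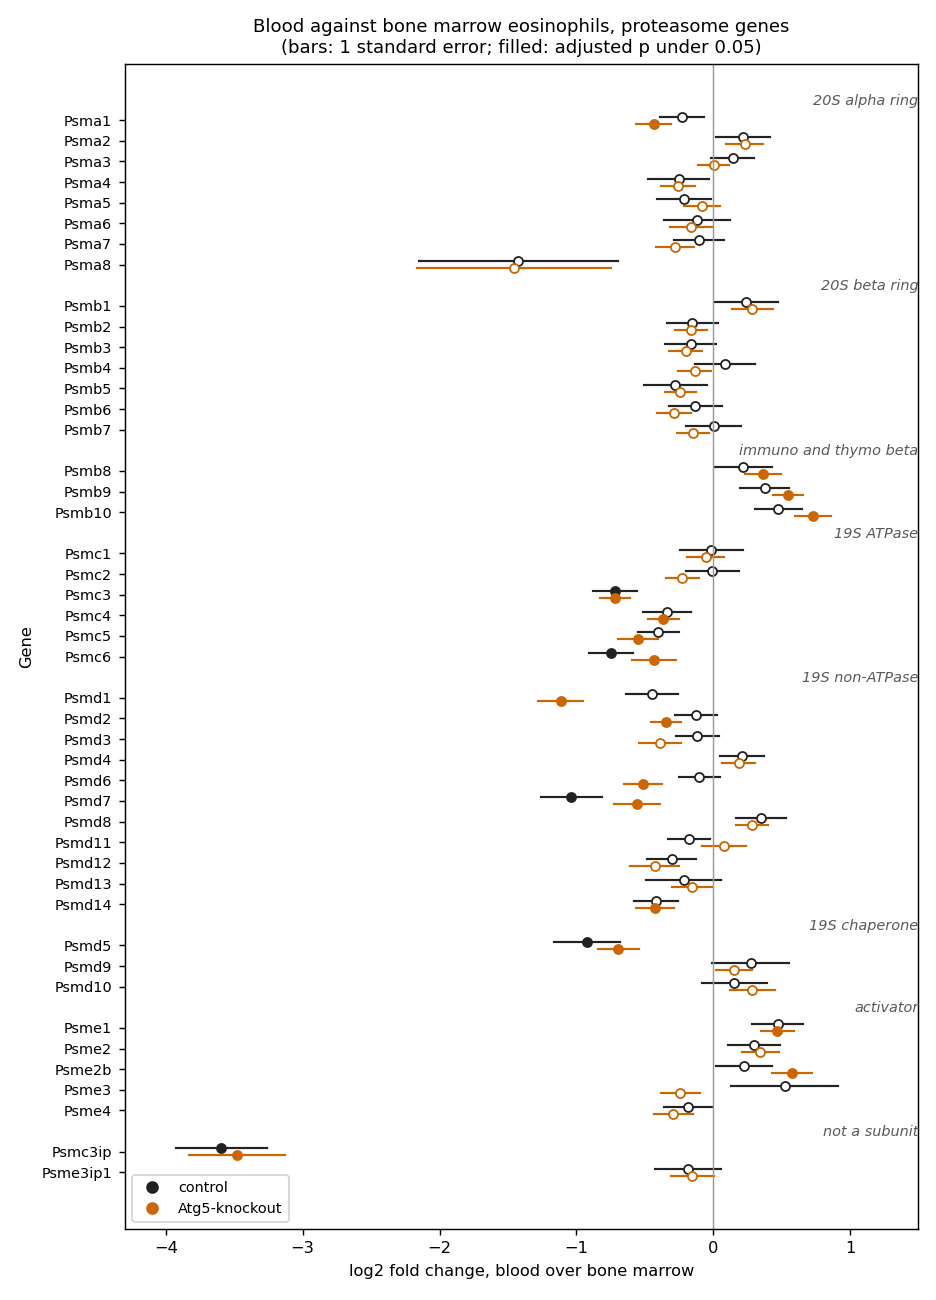
Log2 fold change of blood over bone marrow (x axis) for the proteasome genes tested (y axis, by role) in control and Atg5-knockout mice, with 1 standard error as bars and filled points where the adjusted p is under 0.05. The 3 immunoproteasome genes and Psme1 lie right of 0 in both genotypes, the 6 ATPases at or left of 0, and Psmc3ip far to the left at -3.60 and -3.48.

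Of the 3 immunoproteasome subunits tested, none passed in control mice and all 3 were called higher in blood of Atg5-knockout mice. The call of Psmb8 held in only 6 of the 14 fits tried, the main fit included. Beside these 3 subunits, 16.2% and 23.5% of all genes were called higher in the 2 genotypes. Psmb10, the beta2i subunit, stood at 84.3, 111 and 92.4 CPM in control bone marrow and 117, 149 and 131.5 CPM in control blood. In Atg5-knockout mice Psmb10 stood at 95.7, 88.9 and 76.6 CPM in bone marrow and 136, 152.5 and 126 CPM in blood. All blood libraries lay above all bone marrow libraries of their genotype. The log2 fold change was 0.48 ± 0.175 (SE) in control mice, which missed the threshold (edgeR, adjusted p = 0.0631; 0.0248 without control blood 1), and 0.73 ± 0.131 in Atg5-knockout mice (edgeR, adjusted p = 0.00191).

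Psmb9, the beta1i subunit, stood at 72.4, 94.4 and 88.5 CPM in control bone marrow and 89.9, 122 and 117 CPM in control blood, where the lowest blood library, control blood 1, lay within the range of bone marrow. In Atg5-knockout mice Psmb9 stood at 87.0, 80.9 and 81.1 CPM in bone marrow and at 112, 123 and 112 CPM in blood, without overlap. The log2 fold change was 0.38 ± 0.181 (edgeR, adjusted p = 0.14) in control mice, 0.49 without control blood 1 (adjusted p = 0.0344), and 0.54 ± 0.109 in Atg5-knockout mice (edgeR, adjusted p = 0.00337). Psmb8, the beta5i subunit, stood at 148, 195 and 166 CPM in control bone marrow and 144, 232 and 213 CPM in control blood, which overlapped. In Atg5-knockout mice Psmb8 stood at 164, 144 and 147 CPM in bone marrow and 177.5, 214 and 168.5 CPM in blood, which did not. Its log2 fold change was 0.22 ± 0.209 (edgeR, adjusted p = 0.445) and 0.36 ± 0.13 (adjusted p = 0.0447), and with library size alone in place of TMM the control value turned to -0.09. Without control blood 1 it was 0.40 (edgeR, adjusted p = 0.0741). That scaling lowered the median of all genes to -0.31 in control and -0.24 in Atg5-knockout mice.

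The constitutive catalytic subunits that these replace did not pass the test in either genotype. Psmb5, the beta5 subunit, stood at 80.5, 92.5 and 84.1 CPM in control bone marrow and 45.5, 84.4 and 80.9 CPM in control blood, with a log2 fold change of -0.28 ± 0.23 (edgeR, adjusted p = 0.384). That value rested on control blood 1, the lowest library, and was -0.05 without it (edgeR, adjusted p = 0.816). In Atg5-knockout mice Psmb5 stood at 83.1, 82.2 and 78.4 CPM in bone marrow and 65.2, 70.5 and 61.6 CPM in blood, wholly below, with -0.24 ± 0.111 (adjusted p = 0.104). Psmb6, the beta1 subunit, stood at 122.5, 142 and 132 CPM in control bone marrow and 89.3, 131 and 139.6 CPM in control blood. In Atg5-knockout mice Psmb6 stood at 144, 126 and 117 CPM in bone marrow and 98.4, 109 and 95.6 CPM in blood. Control libraries overlapped and Atg5-knockout libraries did not, with log2 fold changes of -0.13 ± 0.191 (edgeR, adjusted p = 0.631) and -0.29 ± 0.124 (adjusted p = 0.0846). Psmb7, the beta2 subunit, had log2 fold changes of 0.00 ± 0.202 (edgeR, adjusted p = 0.99) and -0.15 ± 0.12 (adjusted p = 0.337), with 95% confidence intervals from -0.45 to 0.46 and from -0.42 to 0.12. Without control blood 1 the control values of Psmb6 and Psmb7 were 0.04 and 0.19, which did not pass either.

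To set each immune subunit against the one it replaces within a library, the ratio of their levels per kb was taken, which does not depend on the scaling of the library. Psmb8 to Psmb5 was 0.648 ± 0.0431 (SD, n = 3) in control bone marrow and 0.936 ± 0.0924 in control blood, and 0.613 ± 0.0374 and 0.930 ± 0.0581 in Atg5-knockout mice. Psmb9 to Psmb6 was 0.328 ± 0.0228 and 0.474 ± 0.0439 in control and 0.331 ± 0.0232 and 0.587 ± 0.0132 in Atg5-knockout mice. In these 4 comparisons all blood libraries lay above all bone marrow libraries, by 1.44 to 1.77 times. Psmb10 to Psmb7 was 3.10 ± 0.699 and 4.41 ± 0.885 in control mice, where the libraries overlapped. It was 2.67 ± 0.148 and 4.93 ± 0.421 in Atg5-knockout mice, where they did not. The exact two-sided permutation test gave p = 0.1 for each pair of tissues that did not overlap, which is the smallest p that 3 against 3 libraries allow, and 0.2 for Psmb10 to Psmb7 in control mice. After Benjamini-Hochberg adjustment over 12 such exact tests these were 0.2 and 0.343. Control blood 1 had the highest of the control blood ratios in all 3 pairs, and without it the control blood means were 0.884, 0.453 and 3.96. The size of these ratios rests on the exon lengths of the table, whereas the fold between groups does not. Reads shared with other genes were dropped, which can also move the size and was not tested. The pseudogene Gm3375 is 98.99% identical to Psmb5 over 792 coding bases, and Psmb7 shares 11.8% of its exon bases with Nek6. Of the immune subunits, Psmb8 shares 6.8% with Gm20496 and Psmb9 5.79% with Tap1. With the longest transcript, Psmb8 to Psmb5 was 1.76 in control bone marrow and 2.55 in control blood.

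**Figure D3:**
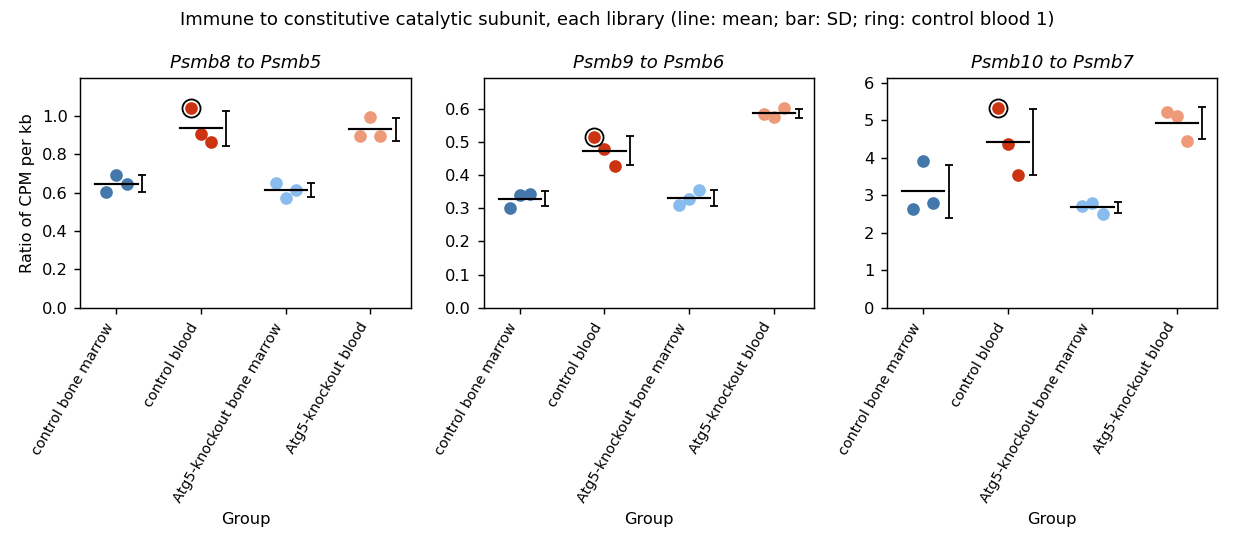
Ratio of CPM per kb of an immunoproteasome subunit to the constitutive subunit it replaces (y axis, from 0) in each library of the 4 groups (x axis), with the mean as a line, the SD as a bar and control blood 1 ringed. Blood lies above bone marrow in each panel except for the overlap of control libraries in Psmb10 to Psmb7, and for Psmb9 to Psmb6 the Atg5-knockout blood libraries (mean 0.587) lie above those of control blood (0.474).

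Factors of the interferon and antioxidant responses are known to act on such genes, and their part in the differences of tissue was not tested. Stretches upstream of the start are shown for the immune subunits, the PA28 genes, constitutive catalytic subunits and 1 ATPase. They are from RefSeq on GRCm38.p6, 5′ to 3′ on the strand of the gene, and 39 of the 46 genes matched the table of starts. Capitals mark a match to TTCNNNGAA (the gamma-activated site of the interferon response), TGACNNNGC (the core of the antioxidant response element, which NFE2L1 and NFE2L2 bind), GAAANNGAA (an interferon response core) or CCAAT (the NF-Y box), searched on both strands. Where annotated exons cover the window, only the bases free of exons or a site of 30 bases is given. Psmb8 is shown from 107 to 78 bases before its start and Psmb9 from 30 to 1 bases before it, where the match is CCAAT read on the other strand.
Psmb8, chr17:34198088-34198117, plus strand: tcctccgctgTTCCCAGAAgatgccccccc
Psmb9, chr17:34187331-34187360, minus strand: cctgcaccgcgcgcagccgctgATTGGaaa
Psmb10, chr8:105938445-105938642, minus strand: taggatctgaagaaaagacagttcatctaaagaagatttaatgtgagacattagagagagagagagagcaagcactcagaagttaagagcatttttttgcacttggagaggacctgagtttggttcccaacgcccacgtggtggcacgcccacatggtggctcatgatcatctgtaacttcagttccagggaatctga
Psme1, chr14:55578249-55578359, plus strand: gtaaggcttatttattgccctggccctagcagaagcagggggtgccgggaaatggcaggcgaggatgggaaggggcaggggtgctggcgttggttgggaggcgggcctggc
Psme2, chr14:55591114-55591351, minus strand: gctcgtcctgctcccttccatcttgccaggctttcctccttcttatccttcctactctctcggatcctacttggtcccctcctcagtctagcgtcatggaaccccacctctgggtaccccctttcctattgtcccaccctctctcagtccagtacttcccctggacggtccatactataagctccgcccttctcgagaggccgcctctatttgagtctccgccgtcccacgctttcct
No match to the 4 motifs lies in the stretches of Psmb10, Psme1 and Psme2. The constitutive subunits Psmb5 and Psmb6 and the ATPase Psmc6 each hold a match to TGACNNNGC, which begins 47, 9 and 227 bases before the start. The windows of the other ATPases found, Psmc1, Psmc2, Psmc4 and Psmc5, hold no such match, so Psmc6 does not stand for its group.
Psmb5, chr14:54618023-54618245, minus strand: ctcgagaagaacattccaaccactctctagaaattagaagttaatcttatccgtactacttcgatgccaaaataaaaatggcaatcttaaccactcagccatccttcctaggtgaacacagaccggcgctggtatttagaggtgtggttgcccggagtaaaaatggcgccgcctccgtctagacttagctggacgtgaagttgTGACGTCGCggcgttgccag
Psmb6, chr11:70525107-70525356, plus strand: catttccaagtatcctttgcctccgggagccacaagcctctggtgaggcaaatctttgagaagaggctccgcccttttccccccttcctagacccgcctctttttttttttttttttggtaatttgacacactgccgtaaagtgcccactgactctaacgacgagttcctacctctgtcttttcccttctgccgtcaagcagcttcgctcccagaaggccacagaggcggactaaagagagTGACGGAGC
Psmc6, chr14:45329574-45329787, plus strand: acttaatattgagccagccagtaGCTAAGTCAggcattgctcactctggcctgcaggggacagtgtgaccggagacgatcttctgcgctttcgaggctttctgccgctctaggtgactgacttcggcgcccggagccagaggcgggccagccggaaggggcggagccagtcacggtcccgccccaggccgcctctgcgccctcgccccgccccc

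Over the windows of 250 bases before to 50 bases after the start, TGACNNNGC matched 6 of the 39 genes (15.4%, beside 14% of all 27025 genes with a window), namely Psmb5, Psmb6, Psmc6, Psmd9, Psmd12 and Psme4. TTCNNNGAA matched Psmb8 and Psmd2 (5.13% beside 9.55%), GAAANNGAA matched Psmb3, Psmb4, Psmc2, Psmd4, Psmd9 and Psme1 (15.4% beside 9.76%), and CCAAT matched 16 genes (41.0% beside 41.1%). The matches are letters in a window and say nothing of binding, and these members' shares lie near those of all genes for TGACNNNGC and CCAAT.

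Of the activator genes, none passed in control mice, and Psme1 and Psme2b rose in blood of Atg5-knockout mice. The shares called higher were 0% and 40% of the 5 activators, beside 16.2% and 23.5% of all genes. Psme1, the PA28 alpha subunit, stood at 190.1, 226 and 218 CPM in control bone marrow and 224, 322 and 327 CPM in control blood, where control blood 1 lay within the range of bone marrow. In Atg5-knockout mice Psme1 stood at 237, 202 and 208 CPM in bone marrow and 271, 308 and 278 CPM in blood, without overlap. The log2 fold change was 0.47 ± 0.186 in control mice (edgeR, adjusted p = 0.0786; 0.0058 without control blood 1) and 0.47 ± 0.122 in Atg5-knockout mice (adjusted p = 0.0116). Psme2, the PA28 beta subunit, had 0.30 ± 0.191 (edgeR, adjusted p = 0.259; 0.0328 without control blood 1) and 0.35 ± 0.132 (adjusted p = 0.0572). It turned to -0.01 in control mice with library size alone. Psme2b, which is 99.1% identical to Psme2 over 552 coding bases, had 0.22 ± 0.203 (edgeR, adjusted p = 0.426) and 0.58 ± 0.145 (adjusted p = 0.0103). Reads that fit both genes equally were not counted, so its values and those of Psme2 are uncertain. The sum of Psme1 and Psme2 over the sum of the 20S ring genes, both per kb, was 0.143 ± 0.0058 in control bone marrow, 0.196 ± 0.017 in control blood, 0.144 ± 0.00707 in Atg5-knockout bone marrow and 0.203 ± 0.0167 in Atg5-knockout blood, without overlap between the tissues. Without control blood 1 the control blood mean was 0.188 (n = 2), still without overlap. Alongside the values of the immunoproteasome and PA28 genes, the share of T cell markers was above that of every bone marrow library in all blood libraries, and that of B cell markers in some. Monocyte and macrophage markers took 0.271 to 0.299% in blood and 0.221 to 0.271% in bone marrow. Without Atg5-knockout blood 1, the library highest in B and T cell markers, Psmb8, Psmb9, Psmb10, Psme1 and Psme2b stayed called. Their log2 fold changes were then 0.39, 0.56, 0.74, 0.50 and 0.63, and Psmb1, Psmd10 and Psme2 were added. Atg5-knockout blood 2 and 3 still had T cell shares of 0.00421% and 0.00326%, against at most 0.000903% in bone marrow. The part of these other cells in the values was not tested.

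Psme3, the PA28 gamma activator of the nucleus, stood at 111, 94.3 and 98.9 CPM in control bone marrow and 252, 79.8 and 96.8 CPM in control blood. In Atg5-knockout mice Psme3 stood at 108, 118 and 100.1 CPM in bone marrow and 91.0, 74.4 and 98.7 CPM in blood. Control blood 1, the library with 14.6% red cell transcripts, was at 252 CPM, and the other 11 libraries lay between 74.4 and 118 CPM. Its log2 fold change between blood and bone marrow of control mice was 0.52 ± 0.392 (edgeR, adjusted p = 0.336) and -0.19 without that library. In Atg5-knockout mice it was -0.24 (adjusted p = 0.189), with all blood libraries below all bone marrow libraries. The part of red cells in this value was not tested. Psme4, the PA200 activator, did not pass the test in either genotype, with -0.19 ± 0.174 (edgeR, adjusted p = 0.442) and -0.29 ± 0.141 (adjusted p = 0.119).

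Of the 6 ATPases of the 19S base, 2 fell in blood of control mice and 4 in blood of Atg5-knockout mice, with medians of -0.37 and -0.40 (the former -0.29 without control blood 1). These counts are 33.3% and 66.7% of the 6, beside 18% and 24.1% of all genes called lower. Psmc3 (RPT5) stood at 173, 176 and 172 CPM in control bone marrow and 89.0, 122.5 and 102 CPM in control blood. In Atg5-knockout mice Psmc3 stood at 188, 186 and 170.2 CPM in bone marrow and 106, 111 and 99.8 CPM in blood. Blood lay wholly below bone marrow in both genotypes, and the log2 fold change was -0.72 ± 0.161 (edgeR, adjusted p = 0.0092) and -0.72 ± 0.112 (adjusted p = 0.000898). Psmc6 (RPT4) stood at 95.4, 96.1 and 101 CPM in control bone marrow and 51.1, 68.5 and 52.9 CPM in control blood. In Atg5-knockout mice Psmc6 stood at 99.2, 104 and 93.7 CPM in bone marrow and 54.8, 72.9 and 83.1 CPM in blood, again wholly below. The log2 fold change of Psmc6 was -0.75 ± 0.163 (edgeR, adjusted p = 0.00823) and -0.43 ± 0.159 (adjusted p = 0.0496). The latter call held in only 6 of the 14 fits tried. Psmc4 (RPT3) had -0.34 ± 0.176 (edgeR, adjusted p = 0.167) and -0.36 ± 0.113 (adjusted p = 0.0253). Psmc5 (RPT6) had -0.40 ± 0.148 (edgeR, adjusted p = 0.0639) and -0.55 ± 0.147 (adjusted p = 0.0135). Psmc1 (RPT2) and Psmc2 (RPT1) did not pass in either genotype, with values from -0.23 to -0.01, and in control mice 0.20 and 0.18 without control blood 1. Psmc3 shares 8.25% of its exon bases with Slc39a13 on the opposite strand, and its counts were made without an option for strand.

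Of the 11 non-ATPase subunits, 1 was called lower in blood of control mice and 5 in blood of Atg5-knockout mice, with medians of -0.18 and -0.39 (the former -0.03 without control blood 1). These counts are 9.09% and 45.5% of the 11, beside 18% and 24.1% of all genes called lower. Psmd7 (RPN8), the partner of the deubiquitinase subunit in the lid, stood at 81.5, 90.3 and 92.1 CPM in control bone marrow and 31.7, 58.0 and 38.0 CPM in control blood. In Atg5-knockout mice Psmd7 stood at 84.0, 92.7 and 81.2 CPM in bone marrow and 43.1, 56.0 and 68.5 CPM in blood. Blood lay wholly below bone marrow in both, with a log2 fold change of -1.04 ± 0.223 (edgeR, adjusted p = 0.00786) and -0.56 ± 0.171 (adjusted p = 0.0243). Psmd14 (RPN11), the deubiquitinase subunit itself, had -0.42 ± 0.161 (edgeR, adjusted p = 0.0731) and -0.43 ± 0.141 (adjusted p = 0.0334).

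Psmd1 (RPN2), a scaffold of the 19S base, stood at 75.6, 48.6 and 66.1 CPM in control bone marrow and 50.4, 45.8 and 41.4 CPM in control blood, with overlap. In Atg5-knockout mice Psmd1 stood at 74.8, 87.3 and 78.2 CPM in bone marrow and 43.4, 33.9 and 28.7 CPM in blood, without overlap. The log2 fold change was -0.45 ± 0.19 (edgeR, adjusted p = 0.0994; -0.53 and 0.0481 without control blood 1) and -1.11 ± 0.165 (adjusted p = 0.000692). Psmd6 (RPN7), a lid subunit, stood at 77.9, 66.6 and 75.9 CPM against 59.5, 70.5 and 73.2 CPM in bone marrow and blood of control mice, which overlapped. In Atg5-knockout mice Psmd6 stood at 91.1, 97.1 and 84.7 CPM against 50.9, 62.7 and 69.1 CPM, which did not. It had log2 fold changes of -0.10 ± 0.151 (edgeR, adjusted p = 0.634) and -0.51 ± 0.141 (adjusted p = 0.0149). Psmd2 (RPN1), another scaffold of the base, had -0.12 ± 0.153 (edgeR, adjusted p = 0.561) and -0.35 ± 0.111 (adjusted p = 0.0289). Psmd8 (RPN12) and the ubiquitin receptor Psmd4 (RPN10) had positive values that did not pass, 0.35 and 0.28 for Psmd8 and 0.21 and 0.19 for Psmd4. Psmd8 passed in control mice without control blood 1 (edgeR, 0.50, adjusted p = 0.0155).

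Of the 3 chaperones of 19S base assembly, Psmd5 fell and the others did not pass. This is 33.3% of them in each genotype, beside 18% and 24.1% of all genes called lower. Psmd5 stood at 62.1, 46.5 and 47.0 CPM in control bone marrow and 24.8, 36.5 and 19.9 CPM in control blood. In Atg5-knockout mice Psmd5 stood at 50.1, 54.7 and 57.1 CPM in bone marrow and 27.8, 38.7 and 29.3 CPM in blood. Blood lay wholly below bone marrow, with a log2 fold change of -0.92 ± 0.24 (edgeR, adjusted p = 0.0175) and -0.69 ± 0.151 (adjusted p = 0.00499). Psmd9 and Psmd10, which also hold base intermediates, had positive values, 0.27 and 0.15 for Psmd9 and 0.15 and 0.29 for Psmd10.

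Of the 8 genes of the alpha ring, none had even an unadjusted p under 0.05 in control mice by edgeR and none was called by DESeq2, and 1, Psma1, was lower in blood of Atg5-knockout mice (edgeR, -0.44 ± 0.127, adjusted p = 0.0197). The shares of the ring called lower were 0% and 12.5%, beside 18% and 24.1% of all genes. The medians of the ring were -0.17 and -0.21, the former 0.01 without control blood 1. Psma7, whose product is the alpha4 subunit, stood at 192, 215 and 200.4 CPM in control bone marrow and 142, 207 and 212 CPM in control blood. In Atg5-knockout mice Psma7 stood at 239, 231 and 198 CPM in bone marrow and 169, 202.5 and 155 CPM in blood, and the tissues overlapped in both. Its log2 fold changes were -0.11 ± 0.183 (edgeR, adjusted p = 0.687) and -0.28 ± 0.138 (adjusted p = 0.12). Psma8 had -1.42 ± 0.73 (edgeR, adjusted p = 0.163) and -1.46 ± 0.709 (adjusted p = 0.12), from few counts. The 7 constitutive beta genes had medians of -0.13 (0.04 without control blood 1) and -0.16 and no call in either genotype by edgeR or DESeq2, with an unadjusted p under 0.05 for 0 and 1 of them. Psmb1 was called higher in control mice without control blood 1 (edgeR, 0.47, adjusted p = 0.0265).

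Sums per kb were also set against each other within a library, where their size rests on the exon lengths used. The 6 ATPases over the 20S ring genes gave 0.243 ± 0.017 in control bone marrow, 0.199 ± 0.0227 in control blood, 0.249 ± 0.00566 in Atg5-knockout bone marrow and 0.2 ± 0.0136 in Atg5-knockout blood, and every blood library lay below every bone marrow library. The 11 non-ATPase subunits over the 20S ring genes gave 0.327 ± 0.0133, 0.312 ± 0.0334, 0.333 ± 0.00728 and 0.308 ± 0.00838 in the same order, and control blood overlapped with control bone marrow. The sum of Psmb8, Psmb9 and Psmb10 over that of Psmb5, Psmb6 and Psmb7 was 0.765 ± 0.0601, 1.14 ± 0.156, 0.724 ± 0.0121 and 1.26 ± 0.0433, with no overlap of the tissues. With the longest transcript these last ratios were 1.30, 1.88, 1.22 and 2.11, so that the sum of the immune subunits lay below or above that of the constitutive ones in bone marrow with the length chosen, while blood remained wholly above bone marrow. The non-ATPase ratio then overlapped between the tissues in Atg5-knockout mice too. Without control blood 1 the control blood means were 0.187 for the ATPases, 0.296 for the non-ATPase subunits and 1.06 for the immune subunits (n = 2). These sums were not tested.

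**Figure D4:**
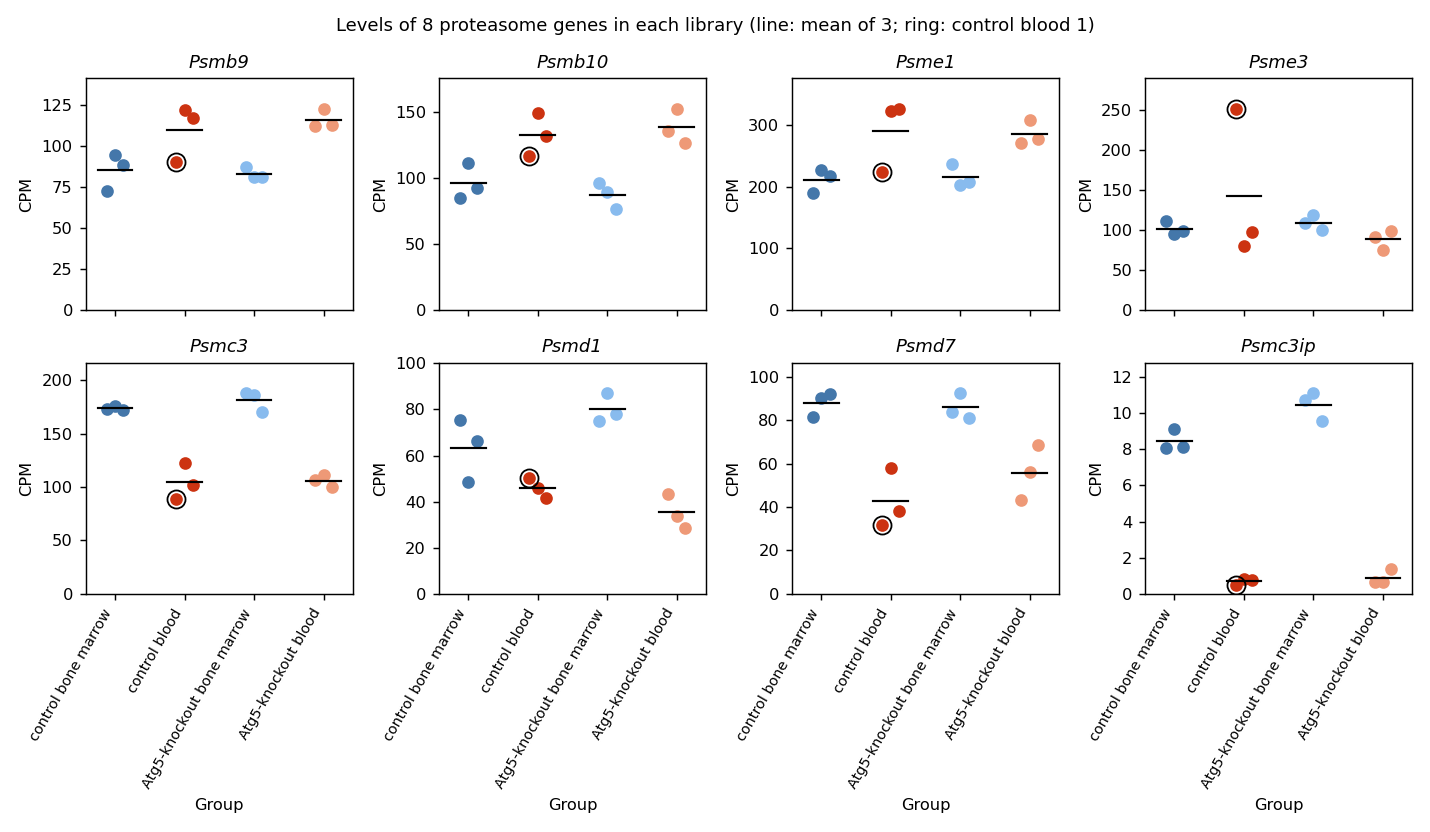
CPM (y axis, from 0) of 8 proteasome genes in each library of the 4 groups (x axis), with the mean of 3 as a line and control blood 1 ringed. Psmb9, Psmb10 and Psme1 lie higher in blood of Atg5-knockout mice without overlap, whereas in control mice Psmb9 and Psme1 overlap between the tissues and none of the 3 passed. Psmc3, Psmd7 and Psmc3ip lie lower in blood of both genotypes, Psmd1 lower without overlap in Atg5-knockout mice, and Psme3 has 1 high library at 252 CPM.

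The largest difference of tissue was that of Psmc3ip, which is no subunit. It stood at 8.06, 9.14 and 8.12 CPM in control bone marrow and 0.473, 0.838 and 0.734 CPM in control blood. In Atg5-knockout mice Psmc3ip stood at 10.7, 11.1 and 9.56 CPM in bone marrow and 0.673, 0.628 and 1.39 CPM in blood. Every blood library lay far below every bone marrow library, with a log2 fold change of -3.60 ± 0.333 (edgeR, adjusted p = 0.000109) and -3.48 ± 0.351 (adjusted p = 8.87e-05). The 10 markers of dividing cells moved with it, at 0.146 to 0.211% of the counts in bone marrow and 0.00408 to 0.0108% in blood, and their part in this result was not tested. Psmc3ip shares 21.2% of its exon bases with Mlx on the opposite strand. Psme3ip1, a partner of PSME3, had -0.18 ± 0.244 (edgeR, adjusted p = 0.591) and -0.15 ± 0.159 (adjusted p = 0.456). The shares of eosinophil, dividing cell, neutrophil and T cell markers given above differed between the tissues alongside all differences of tissue. That of monocyte and macrophage markers was 0.221 to 0.271% in bone marrow and 0.271 to 0.299% in blood, and that of B cell markers varied widely in blood. The part of all these cells in the differences of tissue was not tested.

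The study compared the genotypes within each tissue. In bone marrow, none of the 45 genes tested differed between Atg5-knockout and control mice by edgeR's test (lowest adjusted p = 0.413) or by DESeq2, and 2 had an unadjusted p under 0.05. The share of all genes at that unadjusted p is not given here. Of all 13781 genes, 0.145% were called higher and 0.203% lower. The log2 fold changes had a median of -0.02 beside 0.0029 over all genes and ran from -0.21 (Psmb8) to 0.58 (Psma8, from few counts). In all, 44 of the 45 confidence intervals (95%) lay within a fold of 2 either way, the exception being Psma8. The 2 genes were Psmd6, with 0.27 ± 0.1 (edgeR, adjusted p = 0.413), and Psmd1, with 0.30 and a confidence interval from 0.0053 to 0.59 (edgeR, adjusted p = 0.51). All 3 Atg5-knockout libraries lay above all 3 controls for Psma1, Psmc3ip, Psmd6 and Psmd14 and below for no gene, beside 9.03% and 5.51% of all genes.

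In blood, none of the 44 genes tested differed by edgeR, with or without the replicate number as a block, or by DESeq2. All adjusted p-values of edgeR were 1 and none of the 44 had an unadjusted p under 0.05. Of all 13460 genes, 0.0371% were called higher and 0% lower. The median was -0.04 beside 0.0062 over all genes, and no gene was without overlap between the genotypes, beside 3.25% of all genes above and 4.29% below. The spread in blood was wider than in bone marrow, with a biological coefficient of variation of 0.365 against 0.146. Of the 44, 41 confidence intervals of the fit without the block lay within a fold of 2, the exceptions being Psmc3ip, Psmd7 and Psme3. Psme3 had -0.68 ± 0.409 and a confidence interval from -1.61 to 0.25, and 0.04 without control blood 1. Psmd7 had 0.43 with an interval from -0.18 to 1.03, and the 3 immune subunits Psmb8, Psmb9 and Psmb10 had -0.04, 0.11 and 0.09, or -0.21, -0.0024 and 0.02 without control blood 1.

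**Figure D5:**
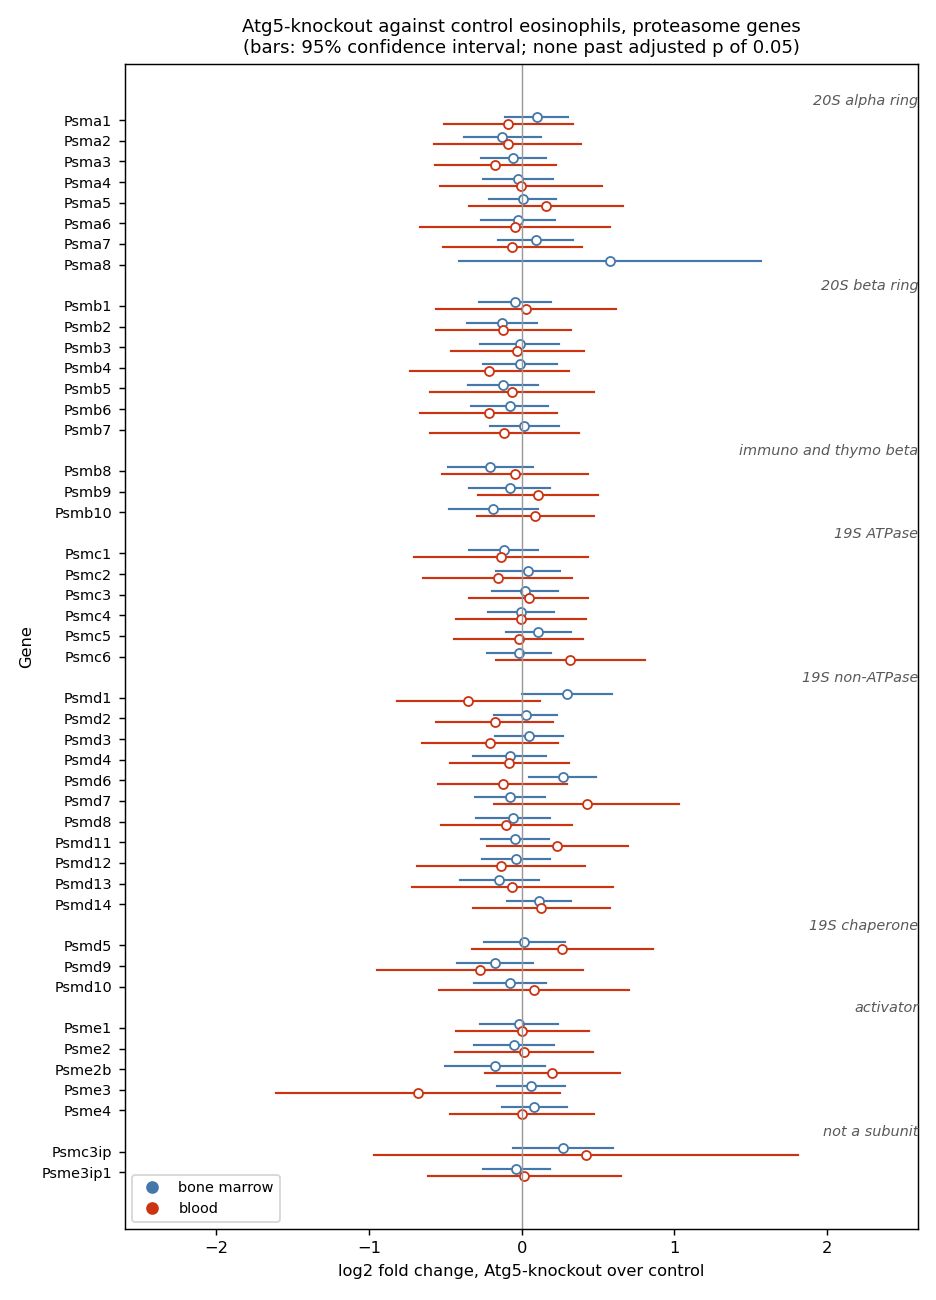
Log2 fold change of Atg5-knockout over control (x axis) for the proteasome genes (y axis, by role) in bone marrow and blood, with 95% confidence intervals. Points scatter around 0 with wider intervals in blood, and no gene passed the adjusted p of 0.05 in either tissue.

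The interaction of tissue and genotype, the knockout effect in blood minus that in bone marrow, called 0% of the 14712 genes tested and none of the 45 proteasome genes by edgeR (lowest adjusted p = 0.942) or by DESeq2. Without adjustment 740 of all genes and 2 of the 45 had a p under 0.05. These 2 were Psmd1, with -0.69 and a confidence interval from -1.25 to -0.14, and Psmd6, with -0.44 and an interval from -0.87 to -0.01, each at an adjusted p of 0.942 by edgeR. In both, Atg5-knockout libraries were on the higher side in bone marrow and on the lower side in blood, with 0.30 and -0.35 for Psmd1 and 0.27 and -0.12 for Psmd6. The ratio of Psmb9 to Psmb6 per kb was the 1 ratio without overlap between genotypes, with 0.587 ± 0.0132 in Atg5-knockout and 0.474 ± 0.0439 in control blood (exact permutation test, p = 0.1; adjusted 0.2). The same ratio was 0.331 ± 0.0232 and 0.328 ± 0.0228 in bone marrow (exact p = 0.9).

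Genes that work with the proteasome were taken from lists of its assembly and regulation, of ubiquitin and its shuttle factors, and of MHC class I processing. Of 19 tested genes of assembly and regulation, 1 was called higher and 7 lower in blood of control mice and 2 higher and 7 lower in Atg5-knockout mice, with medians of -0.48 and -0.32. Of all genes, 16.2% were called higher and 18% lower in control and 23.5% and 24.1% in Atg5-knockout mice, which serves for the 3 lists. Usp14, a deubiquitinase that docks on the 19S base, stood at 49.3, 44.5 and 56.0 CPM in control bone marrow and 18.8, 21.2 and 20.7 CPM in control blood. In Atg5-knockout mice Usp14 stood at 52.2, 61.5 and 54.6 CPM in bone marrow and 16.3, 24.2 and 21 CPM in blood. Blood lay wholly below, with a log2 fold change of -1.28 ± 0.16 (edgeR, adjusted p = 0.000531) and -1.39 ± 0.163 (adjusted p = 0.000198). Uchl5, the other deubiquitinase of the 19S base, had -1.19 and -1.03, and the 20S assembly chaperones Psmg1 and Psmg2 had -0.83 and -1.06 and -1.48 and -1.04, all called lower. Zfand5, a ubiquitin-binding activator of the proteasome, was called higher, with 0.77 and 1.31. Pomp, which matures the 20S core, and Nfe2l1, the transcription factor of the response to lost proteasome activity, did not pass, with 0.00 and 0.07 and with -0.04 and -0.15. Its relative Nfe2l2 fell, with -0.63 ± 0.173 (edgeR, adjusted p = 0.0227) and -0.73 ± 0.113 (adjusted p = 0.000853).

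Of 19 genes of ubiquitin and shuttles, 3 were called higher and 1 lower in control and 4 higher and 3 lower in Atg5-knockout mice, and the shares called higher (15.8% and 21.1%) were near those of all genes. Among these, the polyubiquitin gene Ubb (0.92 and 0.75) and the autophagy receptor Sqstm1 (1.1 and 1.09) were higher in blood in both genotypes, and the ubiquitin-activating enzyme Uba6 was lower (-1.63 and -1.47). Of 15 genes of MHC class I processing, 5 were called higher and 3 lower in control and 7 higher and 4 lower in Atg5-knockout mice. The higher ones in both were the light chain B2m (1.53 and 1.82), the heavy chains H2-D1 (1.36 and 1.35) and H2-K1 (0.94 and 1.1), Tapbp (0.75 and 1.01) and the peptide transporter subunit Tap1 (0.48 and 0.50). The lower ones were the endoplasmic reticulum chaperones Calr (-2.02 and -1.93), Canx (-1.04 and -1.04) and Pdia3 (-0.86 and -1.03). No gene of the 3 lists was called between the genotypes in either tissue by edgeR, and an unadjusted p under 0.05 was reached by Akirin2 (-0.30) and Ubqln2 (-0.31) in bone marrow and by 1 gene in blood.

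Some of the 46 genes lie side by side. Psmb9 and Psmb8 flank the transporter gene Tap1 on chromosome 17 of GRCm38, at chr17:34181988-34187764 and chr17:34197721-34201454, and Tap2 follows 2072 bases after Psmb8. Psmb9 and Tap1 overlap by 212 bases on opposite strands, 5.79% of the exon bases of Psmb9, so that reads from there cannot be told apart without strand. Tap1 stood at 89.5, 91.2 and 94.4 CPM in control bone marrow and 114, 147 and 117 CPM in control blood. In Atg5-knockout mice Tap1 stood at 101, 94.1 and 99.3 CPM in bone marrow and 143, 131 and 124 CPM in blood, and blood lay wholly above in both. Psme1 and Psme2 lie 5911 bases apart on chromosome 14 in opposite directions, and Psmb5 and Psmb11, one expressed and the other at 2 counts, 3410 bases apart on the same chromosome. Of the 46 genes, 15 share exon bases with another gene, 13 of them with one on the opposite strand. Another gene with at least 95% identity over at least 100 coding bases exists for 16, among them the processed pseudogene Gm13835, which matches Psma3 at 100% over 662 bases and held 6163 counts beside the 29271 of Psma3.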

How the data were processed

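Reads were sequenced as single-end reads of stranded mRNA libraries, aligned by the authors with HISAT2 2.2.1 and counted with featureCounts 2.0.1, and the deposited table holds raw counts that the authors did not normalize. Per its header, Ensembl release 92 on GRCm38 was the annotation, strand was not used, and multi-mapping reads and reads on more than 1 gene were dropped. GRCm39 is the build in the Methods, but coordinates here follow the table. Symbols are from GENCODE M39.

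Each comparison of 2 groups was fitted to its 6 libraries with edgeR 4.0.16 in R 4.3.3 (TMM normalization, filterByExpr with a minimum count of 10 and a minimum total of 15, quasi-likelihood test, prior count of 0.125), and the interaction to all 12 libraries as 4 groups. P-values were adjusted over all genes tested, and a gene was called at an adjusted p under 0.05. The procedure was tested on simulated data. CPM used the TMM factors of all 12 libraries. Ratios were compared by exact permutation tests. Coding sequences were matched with BLAST 2.17.0. Alternatives were DESeq2 1.42.0, other normalizations and filters, the replicate number as a block, 1 fit of all libraries, each library left out and a fold threshold. DESeq2 with the block, the longest transcript as the length of a gene, and ratios and shares without control blood 1 were added after the data were seen.

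Genes were chosen by symbol. Values are given for the catalytic and immune beta subunits, the PA28 and other activators, Psma7, Psma8, Psmc3ip and Psme3ip1 throughout, for the 4 genes with the lowest p in each direction of a comparison, the 3 with the lowest interaction p, and of each accompanying list the 2 with the lowest p, with Atg5, Sqstm1, Nfe2l1, Nfe2l2 and Pomp. Some genes that these rules select are not reported here. Any other gene given was picked with its value in view or to complete a role group. The members, lists and rules were chosen with earlier results of these data known, so no choice here is independent of them.

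In blood, deviations from the group means of same-numbered libraries correlated between the genotypes (0.50, 0.21 and 0.30). The replicate number was therefore used as a block in an alternative fit, although what it stands for is not given in the sources used here. The p-values and intervals given for the genotypes in blood are from the fit without the block. Replicates differed by more than sampling noise (chi-square divided by its degrees of freedom from 16.9 to 363).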

Additional observations from a re-analysis of the deposited data

Results flagged for a closer look

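Pseudogene symbols, which the choice of protein-coding genes leaves out of every comparison, also held counts. Psma5-ps had 2086 counts over the 12 libraries, Psmb6-ps2 had 139 and Psmb7-ps2 had 4. Those of Psmb7-ps2 were 2 each in Atg5-knockout bone marrow 2 and 3, with 0 in the others, which is too few to show expression. Psma5-ps is 96.4% identical to Psma5 over 786 bases, and its share of the reads of Psma5, which held 31977 counts, was not tested. Groups of 3 libraries were not tested for outlying samples, and no proteasome gene passed the test of the interaction.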

How the results depend on the processing

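Groups of 3 libraries, a biological coefficient of variation of 0.146 to 0.365 and 1 library rich in red cell transcripts limit what these counts can show. With a log2 fold change beyond 2 added to the threshold, 1 gene was lower in control blood, and 0 were higher and 1 lower in Atg5-knockout blood. RLE normalization and the replicate block each called 1 gene higher in control blood, and 1 fit of all libraries called 3. With library size alone, 12 genes were lower in control blood (median -0.43) and 2 higher and 28 lower in Atg5-knockout blood (median -0.43), as the median of all genes fell to -0.31 and -0.24, and Psmb8 and Psme2 turned to -0.086 and -0.011 in control mice. With each library left out, control mice gave 0 to 7 genes higher and 4 to 6 lower in blood and Atg5-knockout mice 2 to 8 higher and 4 to 11 lower. Shares of all genes called under these settings are not given here. The medians then ran from -0.24 to 3.38e-05 and from -0.27 to -0.15 between tissues, from -0.078 to 0.020 (bone marrow) and -0.20 to 0.06 (blood) between genotypes, and from -0.20 to 0.052 for the interaction, lowest without control blood 1. Psme3 ran from -0.19 to 0.82 between tissues of control mice and from -0.97 to 0.040 between genotypes in blood, reversed in both cases without control blood 1. The causes were not tested, apart from the shift of all genes with library size alone. No setting called a proteasome gene between the genotypes. Between tissues and in bone marrow the replicate numbers did not pair the libraries (correlations from -0.15 to 0.13), and the block left 4 higher and 9 lower in Atg5-knockout blood. In the comparison of genotypes in blood the block changed no call. Of 2013 values of named genes under alternatives, 4 reversed, 23 newly passed the threshold, 22 no longer did and 1964 stayed on their side of it, and 125 that lay within 1 SE of 0 changed sign.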
